A study of Mus musculus with 16 samples.

Results

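Forkhead genes encode transcription factors that bind DNA through a shared winged-helix domain. Foxc1 and Foxc2 act in mesoderm, including somites, vessels and the heart field, whereas Foxf1 and Foxf2 act mainly in mesenchyme beside the gut. The members of the family differ in where and when they are expressed, and several of them lie in clusters with other forkhead genes.

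The genes described are Foxc2, Foxc1, Foxq1, Foxf2, Foxd1, Foxd3, Foxj1, Foxo1 and Foxp1, 9 of the 44 forkhead genes on the array. Foxc2 and Foxq1 were chosen by their log2 changes against DMSO, which had opposite signs, and Foxc1 and Foxf2 because they lie beside Foxq1. The choice named no time, so the changes of Foxc2 and Foxq1 at 6 h and at 24 h are given as a description, with no test. The 9 genes were matched by 14 probes, of 60273 gene probes on the array. Of these, 10 probes passed the filter on dim signals and covered all 9 genes, so that each gene had a tested probe among 20534 annotated genes.

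RNA was profiled in CGR8-Myh6-GFP cells, a mouse embryonic stem cell line with a reporter driven by the cardiac myosin promoter, during spontaneous differentiation to heart muscle. Treatment began on day 4 of differentiation. Cells received the vehicle DMSO, the hawthorn extract WS1442 at 0.25 mg/mL, or its methanol fraction, MeOH eluate, at 0.1 mg/mL. They were harvested after 6 h or 24 h, with 2 DMSO arrays and 3 arrays of each treatment at each time, 16 arrays in all. The cultures are mixtures of cells, so that fewer cells of a type and less RNA per cell cannot be told apart. The doses differed, and the comparisons of WS1442 and of MeOH eluate share their DMSO arrays. The labels do not say that replicates were separate cultures, so that p-values measure the spread between these samples, which may be technical.

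The share of probes well above background was 55.1% to 63.0% on the 16 arrays, and RNA integrity numbers lay between 8.6 and 10. The arrays of each time point shared 1 slide of 8, so that time and slide cannot be told apart and levels were not compared between them. Values are log2 normalized signals, and a gene was called at an adjusted p-value under 0.05.

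The probes that report the 4 genes of main interest are shown by their first 30 bases, since a reader can see from them that related genes were measured by unrelated sequences.
Foxc2: ggctttgtacagtagatgccatctggggta
Foxc1: gccgctcctatctagaggcaacacttaagc
Foxq1: tgactgctgcgtgtaagagagctgtcaatc
Foxf2: gtcatcatcatcctctgcctcctgtgcctc
The whole probes were 47 to 49 bases long. The longest run shared with the probe of another of the 9 genes was 7 bases for Foxc2 and Foxq1, 8 for Foxc1 and 9 for Foxf2.

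Foxc2 was higher with both treatments than with DMSO at both times, and more so with MeOH eluate. At 6 h its signal was 5.78 and 5.76 with DMSO, 7.64, 7.51 and 7.72 with WS1442, and 9.0, 9.08 and 8.94 with MeOH eluate. The 3 groups did not overlap. The log2 change was 1.86 (SE 0.11) with WS1442 and 3.24 (SE 0.11) with MeOH eluate.

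At 24 h the DMSO arrays stood at 7.66 and 7.66 for Foxc2, WS1442 at 8.49, 8.45 and 8.38, and MeOH eluate at 9.31, 9.15 and 8.82. The order of the groups was that of 6 h, again without overlap. The log2 change of Foxc2 was 0.78 with WS1442 (interval 0.55 to 1.02) and 1.44 with MeOH eluate (interval 1.20 to 1.68), each with an SE of 0.11. The level with MeOH eluate was 0.65 above that with WS1442 (SE 0.10, interval 0.44 to 0.87). The effect at 24 h was smaller than that at 6 h by 1.07 with WS1442 and 1.80 with MeOH eluate (SE 0.16 each, not tested), while the DMSO level was 5.77 on the slide of 6 h and 7.66 on that of 24 h.

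Foxc1, the closest relative of Foxc2, was also higher with both treatments. At 6 h its signal was 6.78 and 7.46 with DMSO, 8.05, 8.05 and 8.30 with WS1442, and 8.59, 8.75 and 8.76 with MeOH eluate. The DMSO arrays differed more than those of any treated group, and all treated arrays lay above both. The log2 changes were 1.01 and 1.58 (SE 0.16), and they were 0.67 and 1.24 without DMSO replicate 1.

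At 24 h Foxc1 stood at 9.10 and 9.27 with DMSO, 10.01, 9.88 and 10.09 with WS1442, and 10.04, 10.06 and 9.73 with MeOH eluate. It rose by 0.81 with WS1442 (adjusted p = 0.00203, limma) and by 0.76 with MeOH eluate (adjusted p = 0.00348, limma), each with an SE of 0.16. The treated groups overlapped. Their difference was -0.05 (interval -0.35 to 0.25, adjusted p = 0.87, limma), in a comparison that called 16.6% of all genes.

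Foxq1, a forkhead gene of epithelia and stomach, was lower with both treatments. At 6 h its signal was 8.77 and 8.84 with DMSO, 7.70, 7.45 and 7.73 with WS1442, and 6.69, 6.95 and 6.85 with MeOH eluate. The groups did not overlap, and their order was the reverse of that of Foxc2. The log2 change was -1.17 with WS1442 and -1.97 with MeOH eluate (SE 0.10).

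At 24 h Foxq1 stood at 8.97 and 8.78 with DMSO, 8.28, 8.17 and 8.09 with WS1442, and 7.98, 8.05 and 8.00 with MeOH eluate. The log2 change was -0.70 with WS1442 (interval -0.91 to -0.48) and -0.87 with MeOH eluate (interval -1.09 to -0.65), each with an SE of 0.10. The treated groups did not overlap. The interval of their difference, -0.17, ran from -0.37 to 0.02 and included 0.

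Foxf2 lies between Foxq1 and Foxc1 on chromosome 13, and its levels overlapped among groups at both times. At 6 h its signal was 8.26 and 8.33 with DMSO, 8.49, 7.94 and 7.83 with WS1442, and 8.54, 8.18 and 7.23 with MeOH eluate. The lowest was a MeOH eluate array, and without it the 6 h change with MeOH eluate was 0.07. At 24 h all 8 arrays lay between 8.44 and 8.57. The 24 h change was -0.05 with either treatment (SE 0.26), with adjusted p = 0.924 for WS1442 and adjusted p = 0.944 for MeOH eluate by limma.

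**Figure D1:**
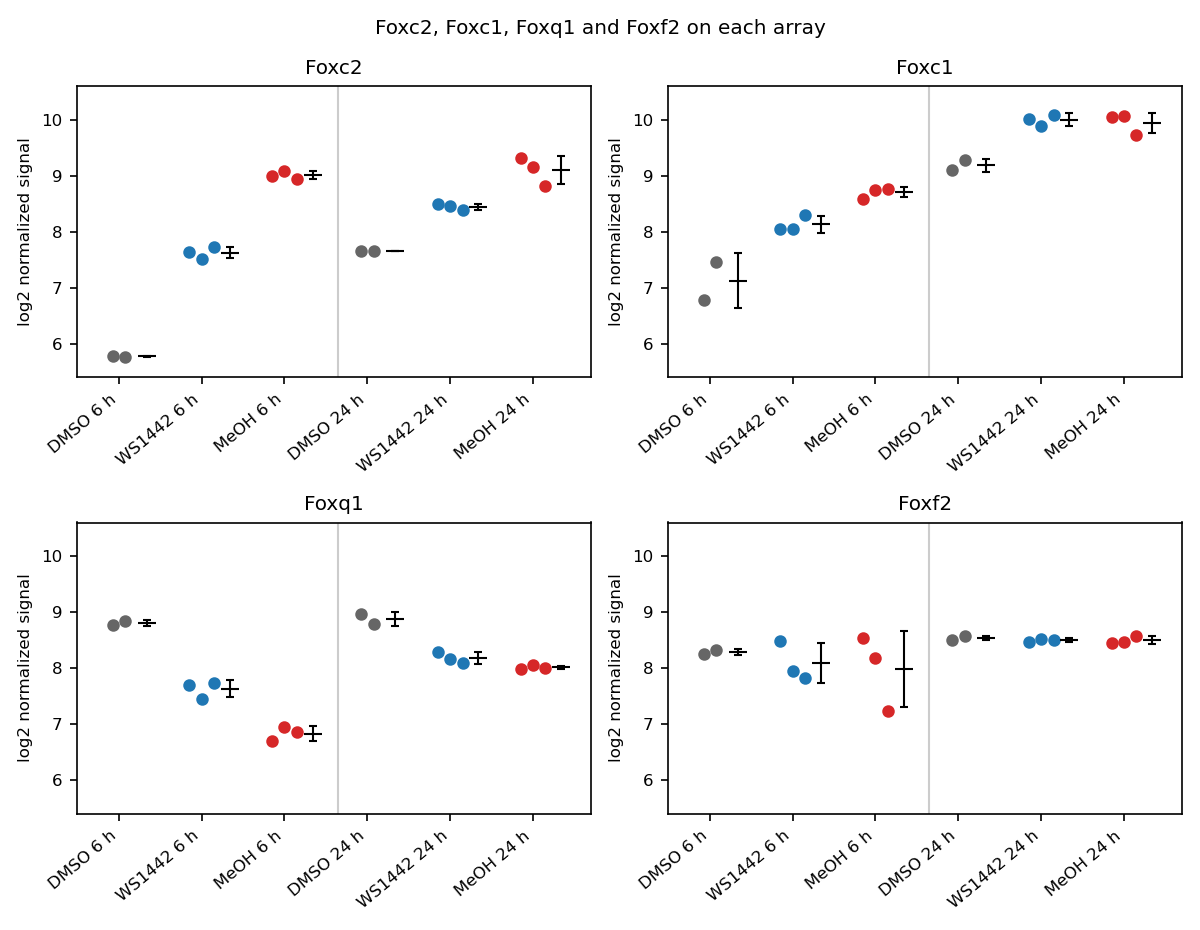
Log2 normalized signal (vertical axes) of Foxc2, Foxc1, Foxq1 and Foxf2 in the 6 groups (horizontal axes). Points are arrays, horizontal bars are group means and whiskers are SD. The 6 h and 24 h groups, split by the grey line, were on different slides. At 6 h Foxc2 stood near 5.77 with DMSO and at 8.94 or above with MeOH eluate, and Foxq1 ran the other way.

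The promoters of Foxc1 and Foxf2 are shown because the genes are neighbours and only Foxc1 was called at 24 h. A test of the difference between the genes was not made. The sequences are the 250 bases before the gene start in RefSeq (GRCm38.p6), in gene orientation, with matches to searched motifs in capitals.
Foxc1, chr13:31806396-31806645, plus strand: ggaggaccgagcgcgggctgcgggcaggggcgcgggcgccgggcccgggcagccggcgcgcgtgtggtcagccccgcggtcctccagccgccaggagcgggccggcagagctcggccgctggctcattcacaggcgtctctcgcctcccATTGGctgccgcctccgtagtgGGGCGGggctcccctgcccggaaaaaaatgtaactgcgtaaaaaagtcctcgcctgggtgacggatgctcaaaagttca
Foxf2, chr13:31625566-31625815, plus strand: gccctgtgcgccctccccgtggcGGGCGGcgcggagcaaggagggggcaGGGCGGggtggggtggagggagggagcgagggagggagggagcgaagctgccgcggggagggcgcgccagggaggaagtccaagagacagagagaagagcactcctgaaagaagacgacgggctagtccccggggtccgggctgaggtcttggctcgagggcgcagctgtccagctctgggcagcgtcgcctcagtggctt
Both strands were searched, first for the TATA box, spelled TATAAA. The second motif was the CAAT box, spelled CCAAT. The GC box was searched as GGGCGG, and a motif bound by forkhead proteins as TGTTTAC. The cyclic AMP response element was searched as TGACGTCA. The last motif was a palindrome bound by SMAD proteins, GTCTAGAC. Foxc1 held 1 CAAT box and 1 GC box, and Foxf2 held 2 GC boxes. Of 32851 promoters of this length, 33.8% held the CAAT box and 32.7% the GC box. The forkhead motif occurred in 3.17% of all promoters and in none of the 6 members that had an entry. G and C made up 70.8% of the Foxc1 bases and 71.6% of the Foxf2 bases, against a median of 52.4%.

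Of the other 5 genes, only Foxp1 was called at 24 h, and only with WS1442. Foxp1, a regulator of heart and lung development, had 6 probes, of which 2 passed the filter. At 24 h the brighter one stood at 9.48 and 9.13 with DMSO, 9.11, 8.95 and 8.82 with WS1442, and 9.25, 9.32 and 9.35 with MeOH eluate. It fell by 0.35 with WS1442 (SE 0.11, adjusted p = 0.0353, limma), and the call was lost without DMSO replicate 1 (-0.17, adjusted p = 0.439), WS1442 replicate 2 (adjusted p = 0.0752) or WS1442 replicate 3 (adjusted p = 0.133). The call was also lost with no filter on dim probes, with eBayes without trend and with the replicate number as a block (adjusted p = 0.0702, 0.0623 and 0.0749, limma). The dimmer Foxp1 probe gave -0.08 with WS1442 (adjusted p = 0.626, limma). Both probes were lower, and the difference between them was not tested.

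With MeOH eluate at 24 h the Foxp1 probes gave 0.00 and 0.23 (adjusted p = 0.991 and 0.169, limma). MeOH eluate exceeded WS1442 at both probes, by 0.35 and 0.31 (adjusted p = 0.0307 and 0.0418, limma). These calls were lost when single arrays were left out, with adjusted p up to 0.151 and 0.181. Among the 4 dim Foxp1 probes, 1 read 5.90 on a single WS1442 array at 6 h and between 1.34 and 1.45 on all others.

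Foxd1, a gene of kidney stroma and retina, was near background. Its probe passed the filter only through WS1442 at 6 h, the group in which all 3 arrays were well above background, so a difference there was built into the filter. At 6 h its signal was 2.07 and 2.34 with DMSO, 3.96, 3.57 and 3.55 with WS1442, and 4.17, 3.15 and 4.04 with MeOH eluate. The signal was well above background on 2 of the MeOH eluate arrays and on no DMSO array at 6 h, so that no fold is given for Foxd1 at 6 h. At 24 h its changes were -0.55 and -0.19 (SE 0.36, adjusted p = 0.296 and 0.812, limma).

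Foxd3, a factor of pluripotent cells and neural crest, lay between 7.13 and 8.16 on the 16 arrays. Its 24 h changes were -0.20 and -0.05, and at 6 h it was lower by 0.51 with MeOH eluate, or 0.28 without MeOH eluate replicate 3. Foxj1, which directs formation of motile cilia, ranged from 6.10 to 6.65, with 24 h changes of 0.09 and 0.01. Foxo1, a target of insulin signalling, ranged from 9.20 to 9.55, with 24 h changes of 0.13 and 0.10. None of these 24 h changes passed the test.

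**Figure D2:**
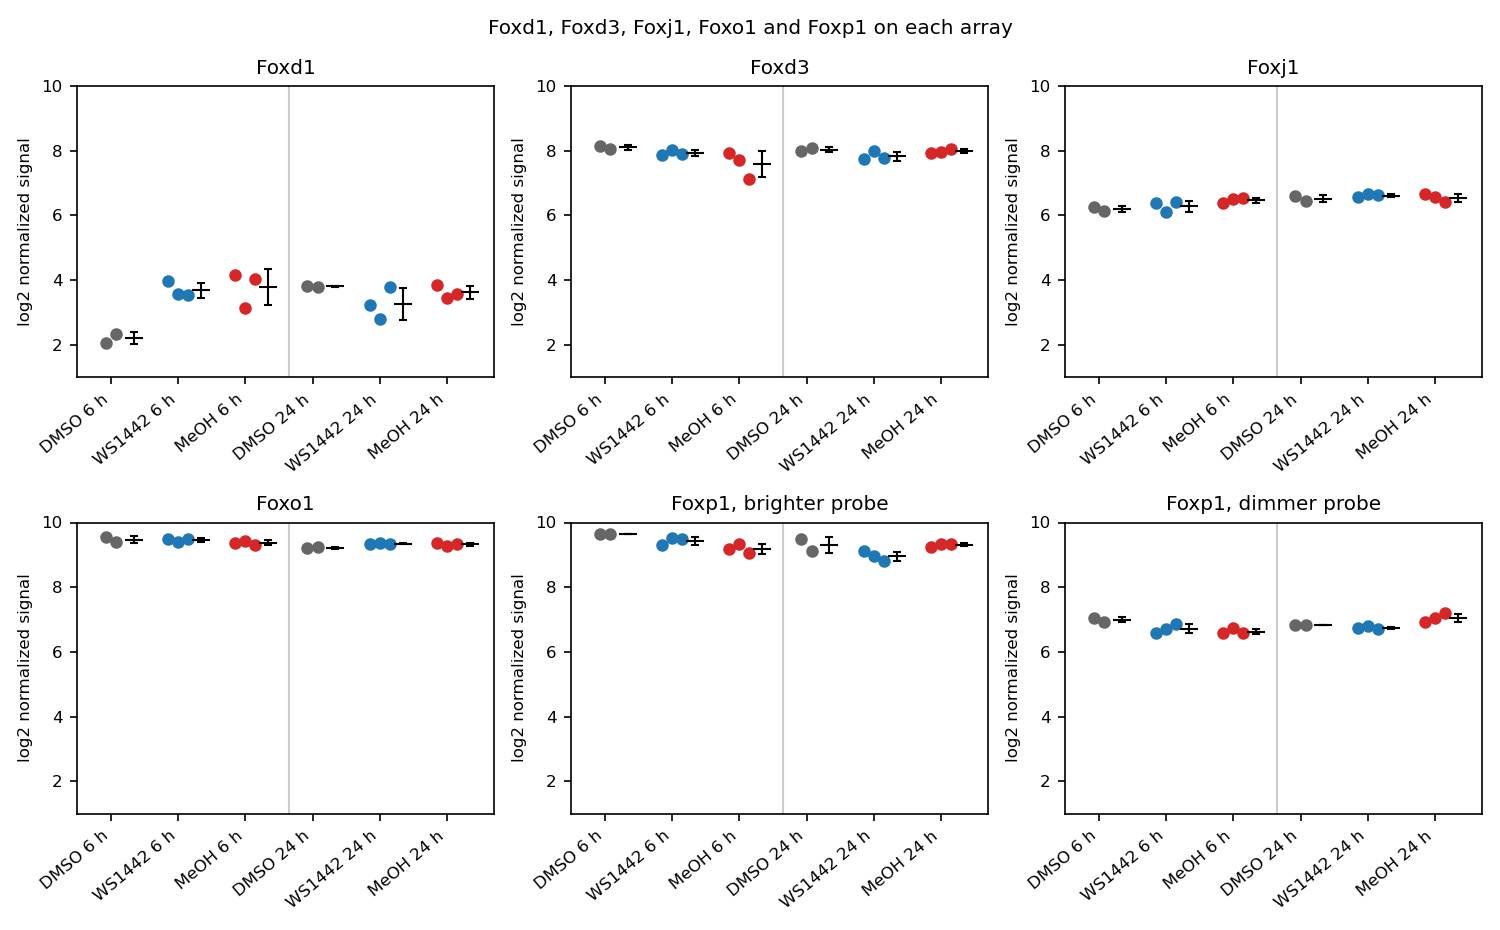
Log2 normalized signal (vertical axes) of Foxd1, Foxd3, Foxj1, Foxo1 and both kept probes of Foxp1 in the 6 groups (horizontal axes), with arrays as points and group mean ± SD in black. Foxd1 lies between 2.07 and 4.17 and the others at 6.10 or above.

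At 24 h, limma called 4 of the 9 genes with WS1442, Foxc1 and Foxc2 higher and Foxq1 and Foxp1 lower, where 26.5% of all genes were called, 14.8% higher and 11.7% lower. With MeOH eluate it called 3 of the 9, Foxc1 and Foxc2 higher and Foxq1 lower, where 20.5% of all genes were called, 11.8% higher and 8.68% lower. Foxc2 with MeOH eluate was the only one of the 9 called with a change over 2-fold at 24 h, where 2.06% of all genes were, and 1.28% with WS1442. At 6 h, 4 were called with WS1442 (6.66% of all genes) and 6 with MeOH eluate (18.7% of all genes). The counts include Foxc2 and Foxq1, chosen by these contrasts. At 6 h they also include Foxd1, whose probe was kept only through WS1442 at 6 h. Nothing is read from the counts. The median change of the 9 genes at 24 h was -0.05 and 0.00, against 0.05 and 0.02 over all genes.

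**Figure D3:**
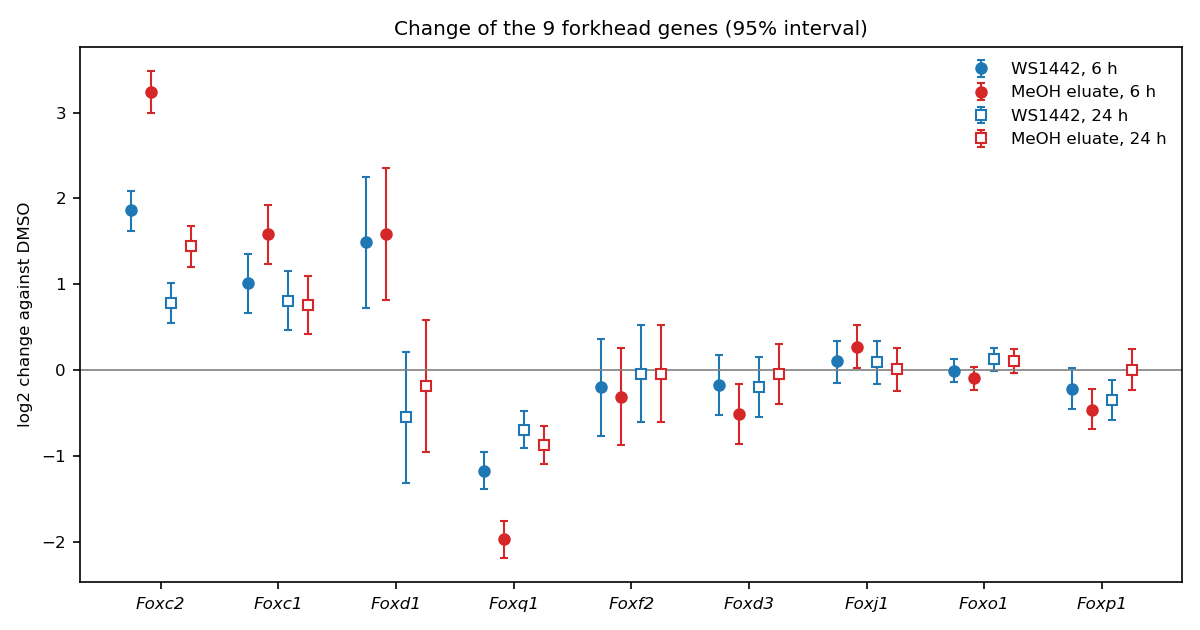
Log2 change against DMSO (vertical axis) of the 9 genes (horizontal axis) with the 95% interval of the fit, for WS1442 (blue) and MeOH eluate (red) at 6 h (filled circles) and 24 h (open squares). Foxc2 and Foxc1 lie above 0 and Foxq1 below 0 in all 4 comparisons, and Foxf2 intervals include 0. The Foxd1 values at 6 h are fitted and are not measured sizes.

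Among the 34 other forkhead genes tested, 7 were called with WS1442 at 24 h and 4 with MeOH eluate. These are 20.6% and 11.8% of them, against 26.5% and 20.5% of all genes. At 6 h the counts were 4 and 10, or 11.8% and 29.4%, against 6.66% and 18.7% of all genes. Foxf1, Foxe1 and Foxs1 were those called with a change over 2-fold in any of the 4 comparisons. Foxs1 was not well above background on any DMSO or MeOH eluate array at 6 h, where its call lay, so that no fold is given.

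Foxf1, required for extraembryonic and lateral mesoderm, changed direction between the times. At 6 h its signal was 6.23 and 5.94 with DMSO, 7.37, 7.11 and 7.38 with WS1442, and 7.30, 7.43 and 7.39 with MeOH eluate. It rose by 1.20 (adjusted p = 0.000133, limma) and 1.29 (adjusted p = 7.92e-06, limma). At 24 h it stood at 9.04 and 9.05 with DMSO, 8.21, 8.23 and 8.40 with WS1442, and 8.77, 8.75 and 8.40 with MeOH eluate.

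All treated arrays were then below DMSO. Foxf1 fell by 0.77 with WS1442 (adjusted p = 0.000509, limma) and by 0.41 with MeOH eluate (adjusted p = 0.0349, limma), the latter call being lost without either DMSO replicate (adjusted p = 0.145 and 0.112) or without MeOH eluate replicate 3 (adjusted p = 0.139). The effect at 24 h minus that at 6 h was -1.97 with WS1442 (adjusted p = 6.12e-05, limma) and -1.70 with MeOH eluate (adjusted p = 3.24e-05, limma). Foxe1, a thyroid factor, rose at 6 h by 0.68 and 1.17 (adjusted p = 0.027 and 0.000201, limma), the first of which was lost without either DMSO array (adjusted p = 0.183 and 0.104) or without WS1442 replicate 3 (adjusted p = 0.0906).

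**Figure D4:**
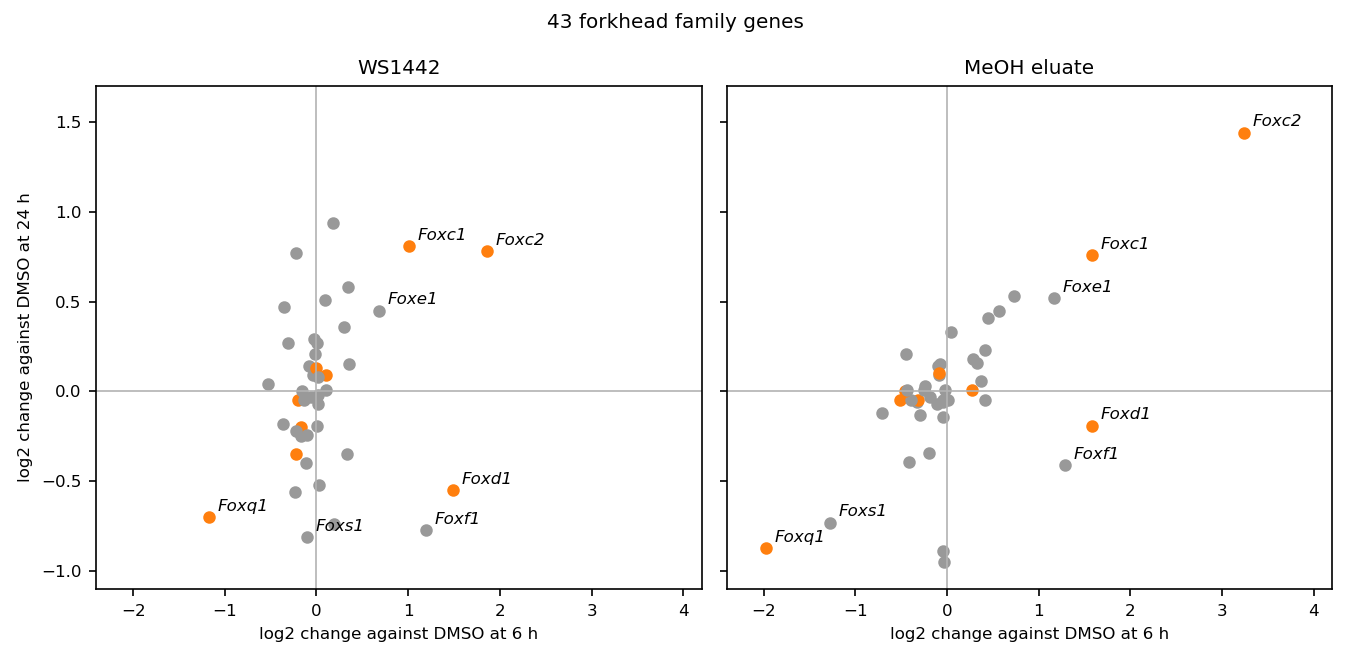
Log2 change against DMSO at 6 h (horizontal axes) and 24 h (vertical axes) of 43 forkhead genes with WS1442 (left) and MeOH eluate (right), with the 9 chosen genes in orange and the other 34 in grey. Foxf1 lies to the right and below 0 in both panels, and Foxc2 at the upper right.

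Foxc2 lies on chromosome 8 in the order Foxf1, Mthfsd, Foxc2 and Foxl1. Mthfsd, between the forkhead genes, changed by 0.09 with WS1442 at 24 h (adjusted p = 0.428, limma) and 0.26 with MeOH eluate (adjusted p = 0.0203, limma), the latter lost without either DMSO array (adjusted p = 0.0832 and 0.0931) or without MeOH eluate replicate 1 or 3 (adjusted p = 0.0509 and 0.0597). At 6 h with MeOH eluate it fell by 0.38 (adjusted p = 0.00282, limma), where Foxc2 and Foxf1 were higher. Foxl1 changed by 0.34 to 0.58 in the 4 comparisons without a call. Irf8, a regulator of myeloid cells further along, fell by 1.08 with MeOH eluate at 24 h (adjusted p = 0.00232, limma).

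Around Foxq1 on chromosome 13 a chosen list of genes was described, in the order Dusp22, Irf4, Exoc2, Foxq1, Foxf2, Foxc1 and Gmds. Listed genes lacking a kept probe were left out, as were genes outside the list, such as long noncoding RNA genes between them. At 24 h Foxq1 was called lower with both treatments, and Dusp22, Exoc2, Foxc1 and Gmds were called higher with both. Calls were 71.4% of these 7 genes with either treatment, against 26.5% and 20.5% of all genes. Foxq1 was chosen by these contrasts, and nothing is read from the count. Exoc2 changed by 0.50 and 0.38 (SE 0.10), or by 0.31 and 0.19 without DMSO replicate 1. Gmds, an enzyme of fucose synthesis beside Foxc1, rose by 0.40 with WS1442 (adjusted p = 0.00214, limma) and 0.38 with MeOH eluate (adjusted p = 0.00336, limma). The second value was 0.29 without DMSO replicate 1 (adjusted p = 0.0717). Dusp22, a phosphatase, rose by 0.35 and 0.37 (adjusted p = 0.00175 and 0.00124, limma). Irf4 was not called.

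**Figure D5:**
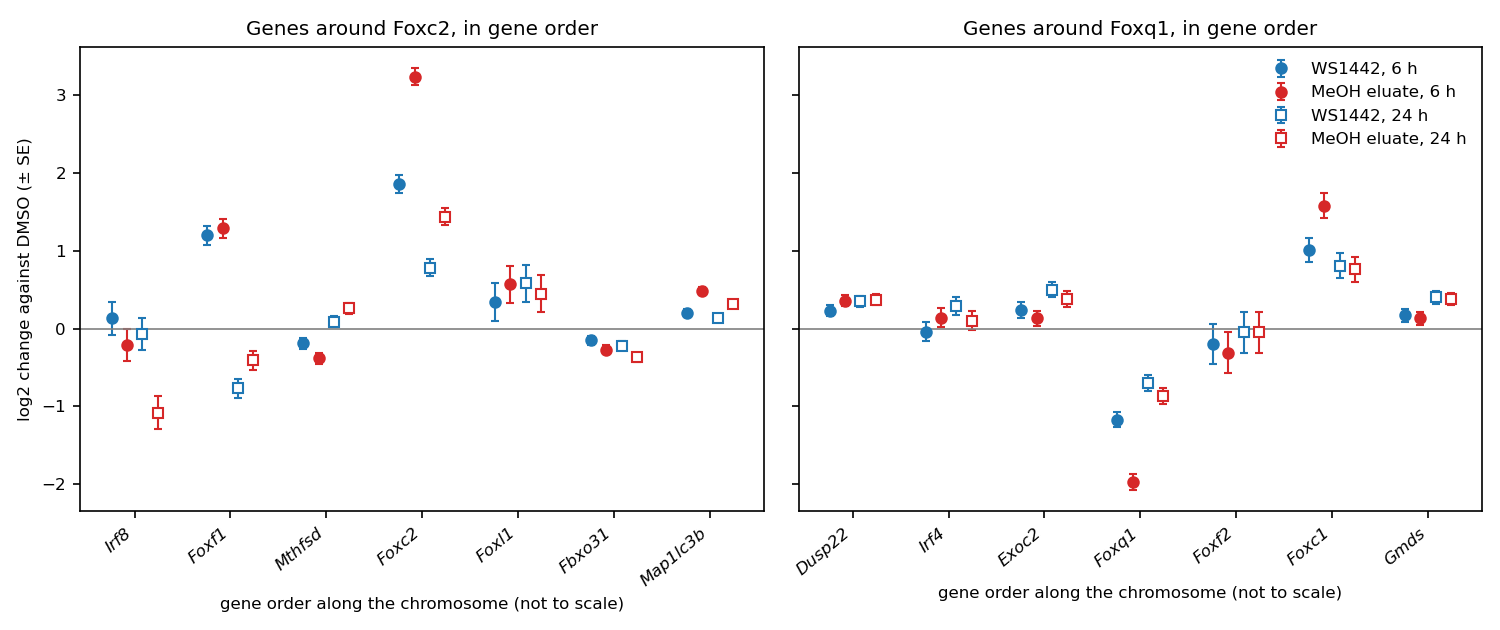
Log2 change against DMSO (vertical axis, ± SE) of chosen genes around Foxc2 (left) and Foxq1 (right) in their order along the chromosome, not to scale. Listed genes lacking a kept probe and genes outside the lists were left out. Foxq1 lies below 0 and Foxc1 above 0 in all 4 comparisons, with Foxf2 between them near 0.

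Over the 16 arrays, after the mean of each time point was subtracted, the signals of Foxc2 and Foxq1 had a Pearson correlation of -0.97. The arrays share the groups, so this value describes the group differences given above. The genes most like Foxc2 were Apoe (0.984), Car3 (0.974), Irx5 (0.968), Pld2 (0.965) and Bhlhe41 (0.964). Those most like Foxq1 were Tex10 (0.967), Wnt3 (0.965), Rrp9 (0.952), Arid5b (0.945) and Mixl1 (0.945).

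Of 16 genes linked to FOXC factors in vessels and somites, 5 fell and 0 rose with WS1442 at 24 h by limma, and 6 fell and 0 rose with MeOH eluate, with medians of -0.11 and -0.08. The calls made up 31.2% and 37.5% of the list, against 26.5% and 20.5% of all genes. At unadjusted p-values under 0.05, 0 were higher with WS1442 and 2 with MeOH eluate. The methods' t-test called 0 of them after adjustment, as it did for each list below apart from 1 lower gene with MeOH eluate among the FOXO targets, the neural crest markers and the primitive streak markers. Cxcr4, a chemokine receptor, fell by 0.70 and 1.01 (adjusted p = 0.000769 and 3.27e-05, limma). Dll4, a Notch ligand, fell by 0.73 with MeOH eluate (adjusted p = 0.000203, limma). Hey1 fell by 1.19 with MeOH eluate (adjusted p = 0.0152, limma), a call lost without either DMSO array (adjusted p = 0.0796 and 0.0606) or without MeOH eluate replicate 3 (adjusted p = 0.0691).

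Paraxial mesoderm markers, among which Foxc1 and Foxc2 are usually expressed, had 0 calls of 11 with WS1442 at 24 h by limma and 1 with MeOH eluate, Msgn1, which fell by 0.77 (adjusted p = 0.000706, limma). The calls made up 0% and 9.09% of the list, against 26.5% and 20.5% of all genes. At unadjusted p-values under 0.05, 1 of the 11 passed with WS1442. Their linear signals were summed and the log2 of the sum was taken, so that the brightest markers weigh most. This value lay at 11.74 to 11.80 with DMSO, 11.73 to 11.84 with WS1442 and 11.58 to 11.82 with MeOH eluate. Each of the 11 was well above background on at least 1 array of every 24 h group. At 6 h the sum was 11.31 to 11.33 with DMSO, 11.33 to 11.53 with WS1442 and 11.48 to 11.68 with MeOH eluate, so that MeOH eluate did not overlap DMSO, and Ripply2 was not well above background on any 6 h array.

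At 6 h, 1 of the 11 paraxial markers was called with WS1442 and 3 with MeOH eluate, against 6.66% and 18.7% of all genes. The genes called at 6 h are named after their values were seen. Lfng, a modifier of Notch signalling, rose by 0.73 and 0.97 (adjusted p = 0.036 and 0.00268, limma), Mesp2 rose by 0.46 with MeOH eluate (adjusted p = 0.0483, limma) and Msgn1 fell by 0.57 with MeOH eluate (adjusted p = 0.00828, limma). With 1 array left out, adjusted p reached 0.455 and 0.0673 for Lfng (both without DMSO replicate 1, with the WS1442 call also lost without WS1442 replicate 3), 0.0993 for Msgn1 (without DMSO replicate 2) and 0.419 for Mesp2, whose call was lost in 11 of 16 such fits. Their part in the Foxc1 and Foxc2 results was not tested.

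Definitive endoderm markers are described beside Foxq1. Of 9 tested, 3 fell and 1, Afp, rose with WS1442 at 24 h, and 5 fell and 0 rose with MeOH eluate by limma. This is 44.4% and 55.6% of the list called, against 26.5% and 20.5% of all genes. At unadjusted p-values under 0.05 the counts were 4 lower and 1 higher with WS1442, and 5 lower and 0 higher with MeOH eluate. Sox17 fell by 1.24 and 1.65 (adjusted p = 4.3e-05 and 1.87e-06, limma), and Gata6 fell by 1.48 with MeOH eluate (adjusted p = 3.54e-06, limma). The log2 of the summed linear signals, in which the brightest markers weigh most, did not overlap among the groups at 6 h. It was 12.53 to 12.69 with DMSO, 11.83 to 11.98 with WS1442 and 10.97 to 11.07 with MeOH eluate. At 24 h the sum was 12.73 to 12.77 with DMSO, 12.71 to 12.94 with WS1442 and 11.78 to 12.18 with MeOH eluate, so that WS1442 overlapped DMSO. Each of the 9 markers was well above background on at least 1 array of every group. The part of these markers in the Foxq1 result was not tested.

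Primitive streak and cardiac progenitor markers fell in 6 of 15 with WS1442 at 24 h and 8 of 15 with MeOH eluate, while 1 and 0 rose by limma, or 2 and 0 at unadjusted p-values under 0.05. The 1 called higher was Mef2c. Calls were 46.7% and 53.3% of the list, against 26.5% and 20.5% of all genes. At 6 h, 1 rose and 2 fell with WS1442. With MeOH eluate at 6 h, 3 rose (Hand1, Isl1 and Myl7) and 3 fell. These are 20% and 40% of the list, against 6.66% and 18.7% of all genes. Myl7, a cardiac myosin light chain, fell by 1.17 and 2.02 at 24 h (adjusted p = 0.000158 and 7.84e-07, limma) but rose by 0.61 and 1.05 at 6 h (adjusted p = 0.0413 and 0.000506, limma). The effect at 24 h minus that at 6 h was -1.78 and -3.06 for Myl7 (adjusted p = 0.000761 and 1.69e-06, limma). The 6 h call with WS1442 was lost in 8 of 16 fits with 1 array left out, with adjusted p up to 0.469 (0.43 without DMSO replicate 1). Mixl1 fell by 0.47 and 1.20 (adjusted p = 0.000235 and 5.05e-08, limma). The log2 of the summed linear signals of the list at 24 h was 12.41 to 12.45 with DMSO, 12.05 to 12.14 with WS1442 and 11.64 to 11.80 with MeOH eluate.

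Of 10 neural crest markers, 2 rose and 2 fell with WS1442 at 24 h, and 0 rose (1 unadjusted) and 3 fell with MeOH eluate by limma. That is 40% and 30% of the list called, against 26.5% and 20.5% of all genes. Msx1, a BMP-responsive factor, fell by 0.48 and 1.18 (adjusted p = 0.000163 and 4.54e-08, limma). Tfap2b rose by 1.05 with WS1442 (adjusted p = 6.59e-05, limma), and Sox9 was also called higher with WS1442. Of 11 pluripotency markers, 2 rose and 3 fell with WS1442, and 0 rose (3 unadjusted) and 1 fell with MeOH eluate by limma. These are 45.5% and 9.09% of that list. Tdgf1, the Nodal co-receptor, fell by 0.32 and 0.69 (adjusted p = 0.00294 and 5.33e-06, limma). Klf2 and Utf1 rose by 0.51 and 0.35 with WS1442 (adjusted p = 0.00109 and 0.0076, limma). The Utf1 change was 0.27 without DMSO replicate 1. At 6 h the Utf1 change had the other sign, -0.41 with WS1442 and -0.59 with MeOH eluate (SE 0.08).

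Of 18 target genes of FOXO factors tested at 24 h, 5 rose and 3 fell with WS1442, and 5 rose and 5 fell with MeOH eluate, with medians of -0.06 and -0.01. The calls made up 44.4% and 55.6% of the list, against 26.5% and 20.5% of all genes. Fbxo32, a ubiquitin ligase of muscle atrophy, rose by 0.78 and 1.05 (adjusted p = 0.000266 and 1.74e-05, limma). Txnip, an inhibitor of thioredoxin, fell by 0.56 and 0.80 (adjusted p = 0.000105 and 3.15e-06, limma). Of 16 motile cilium genes linked to FOXJ1, 1 rose and 1 fell with WS1442, and 0 rose (1 unadjusted) and 2 fell with MeOH eluate by limma. Calls were 12.5% of this list with either treatment, against 26.5% and 20.5% of all genes.

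Targets of signals upstream of forkhead genes were called in 9 of 24 with WS1442 at 24 h, 4 up and 5 down, and in 15 of 24 with MeOH eluate, 4 up and 11 down, or 37.5% and 62.5% against 26.5% and 20.5% of all genes. Smad7, an inhibitor of TGF-beta signalling, fell by 0.66 and 0.98 (adjusted p = 2.51e-05 and 3.03e-07, limma). Lefty2, a Nodal antagonist, fell by 0.67 and 1.06 (adjusted p = 0.00219 and 5.38e-05, limma). Of the genes called higher, Bambi rose by 1.07 with WS1442 (adjusted p = 5.6e-05, limma). Nodal was called higher with both treatments, and Lefty1, Dhrs3 and Sp5 with MeOH eluate. Etv4 and Etv5 were called higher with WS1442 but lower with MeOH eluate. At 6 h, 2 rose and 6 fell with WS1442, and 2 rose and 13 fell with MeOH eluate by limma. These are 33.3% and 62.5% of the list, against 6.66% and 18.7% of all genes. Nodal, Lefty1, Dhrs3 and Sp5 were called lower with MeOH eluate at 6 h, and Lefty1 also with WS1442.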

How the data were processed

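RNA was labelled with Cy3 and hybridised to 1-colour Agilent arrays, 16 in all. The authors deposited scanner intensities, background corrected by Feature Extraction 11.5.1.1 and not normalized between arrays, and a table of linear intensities quantile normalized by the authors. Each of its 16 columns correlated best with its own array. Flags for signals above background came from the scanner files.

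Quantile normalization of log2 intensities across all 16 arrays used limma 3.58.1 (R 4.3.3), and sequences and figures Python 3.11.15. A probe was kept, as 36718 of 60273 were, if some group had it well above background on each of its arrays. Names came from the probe's accession through RefSeq for 32916 probes and from the deposited name for 9355. A model of 6 group means was fitted with eBayes and trend, and p-values were adjusted by Benjamini-Hochberg over all kept probes. The fit was tested on simulated data. A gene was represented by its brightest kept probe. No molecules are counted on arrays, and the number of arrays limits the precision.

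The members, gene lists and tests were chosen with earlier results of these data known. Named genes were the members, other forkhead genes called and changed over 2-fold, chromosomal neighbours, the 4 largest 24 h changes of each list, and the 5 genes most like Foxc2 and Foxq1, of which not all are described. Alternatives covered scaling, background correction, filtering, blocks, weights, the methods' t-test and leaving out each array. The result of 1 further forkhead gene is not reported here.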

Additional observations from a re-analysis of the deposited data

Results flagged for a closer look

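The effect at 24 h differed from that at 6 h for several forkhead genes outside the 9, by limma with adjusted p-values over all kept probes. The difference is the change at 24 h minus that at 6 h, and time and slide cannot be told apart. Foxf1 differed by -1.97 with WS1442 (adjusted p = 6.12e-05) and -1.70 with MeOH eluate (adjusted p = 3.24e-05). With WS1442, Foxa3 differed by -0.67 (adjusted p = 0.00952), Foxh1 by 0.58 (adjusted p = 0.0082) and Foxp2 by 0.76 (adjusted p = 0.0114). The Foxp2 value is that of its brighter kept probe. At its dimmer kept probe the 6 h means were 6.48 with DMSO and 6.71 (SD 0.50) with WS1442. The 24 h means there were 7.39 and 7.29, so that the effect went the other way at that probe. With MeOH eluate, Foxk2 differed by 0.25 (adjusted p = 0.0478), Foxo6 by -0.93 (adjusted p = 0.0267) and Foxp4 by 0.44 (adjusted p = 0.00753). Over all genes, 14.2% were called in this comparison with WS1442 and 9.32% with MeOH eluate.

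For Foxd1 with WS1442 and Foxo1 with MeOH eluate, every treated array lay on one side of the DMSO mean at 6 h and on the other at 24 h. The difference for Foxo1 was 0.20. The fitted difference for Foxd1 was -2.04, but it is not a measured size, since Foxd1 was not well above background on any DMSO array at 6 h and its probe was kept only through WS1442 at 6 h. These differences were not tested.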

How the results depend on the processing

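The 24 h changes of Foxc2, Foxc1 and Foxq1 against DMSO kept their direction under all alternatives, and the Foxc1 calls were kept under all but the methods' t-test. With normexp background correction Foxc2 at 6 h was 1.21 with WS1442 and 2.36 with MeOH eluate, and Foxd1 was 0.19 and 0.20. After adjustment, the methods' t-test called 0 of the 9 genes and 0 of the 43 forkhead genes in each comparison. Of all genes it called 0.00487%, 0.0195%, 0.0243% and 0.76% (WS1442 and MeOH eluate at 6 h, then at 24 h). At unadjusted p-values under 0.05 and over 2-fold it called 4, 4, 0 and 1 of the 9. At adjusted p-values under 0.05 and over 2-fold limma called 4, 4, 0 and 1. At 6 h these limma counts include Foxc2 and Foxq1, chosen by these contrasts, and Foxd1, kept only through WS1442 at 6 h. Nothing is read from the match. Fitted within the time point, 4 rather than 8 forkhead genes were called with WS1442 at 6 h, while the share over all genes was 1.79% rather than 6.66%. Scaling to the 75th percentile moved the share of higher calls over all genes with WS1442 at 24 h from 55.7% to 44.2%.

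Replicate numbers did not pair the arrays: correlations of same-numbered deviations ran from -0.225 to 0.285, 1 of 14 was over 0.1, and 2 of 16 arrays correlated best with their own number. With the replicate number as a block, calls among the 43 forkhead genes were 5 instead of 8 with WS1442 at 6 h and 6 instead of 11 at 24 h, and 13 and 5 with MeOH eluate. Over all genes the shares were then 2.08% instead of 6.66% with WS1442 at 6 h and 19.7% instead of 26.5% at 24 h. With MeOH eluate they were 13% instead of 18.7% and 15.6% instead of 20.5%.

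With 1 array left out, calls among the 9 ranged over 2 to 4 and 3 to 6 at 6 h (WS1442, MeOH eluate), and 3 to 4 and 3 to 3 at 24 h. Both lowest 6 h counts came without DMSO replicate 1. Among the 43 they ranged over 4 to 9 and 8 to 16 at 6 h, and 6 to 13 and 5 to 9 at 24 h. Values near 0 that changed sign at 24 h, none of them called, were Foxp1 with MeOH eluate at 24 h (-0.01 with 75th percentile scaling, 0.00 with array weights, -0.17 to 0.17 with 1 array left out), and, with 1 array left out, Foxj1 (-0.06 to 0.09) and Foxd3 (-0.10 to 0.00) with MeOH eluate at 24 h and Foxc1 between treatments at 24 h (-0.11 to 0.05). At 6 h the sign changed for Foxo1 with WS1442 (-0.08 to 0.07 with 1 array left out, 0.04 with 75th percentile scaling), Foxf2 with WS1442 (0.05 with the replicate block) and Foxf2 with MeOH eluate (0.07 without its replicate 3). The cause was not tested. Signals near background limit Foxd1, Foxs1 and the 4 dim Foxp1 probes.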
